A study of Bos taurus with 31 samples.

Results

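ACTB, GAPDH, YWHAZ, PPIA and B2M, which laboratories often use as internal reference genes, were followed in the liver of 31 bovine fetuses by RNA sequencing. They were chosen by identifier, 5 of the 27607 genes in the count table: ENSBTAG00000026199 (ACTB), ENSBTAG00000014731 (GAPDH), ENSBTAG00000000236 (YWHAZ), ENSBTAG00000012003 (PPIA) and ENSBTAG00000012330 (B2M). All 5 identifiers were present, and all 5 had enough counts to be tested. The table holds identifiers only, so the symbols are those given with the identifiers in the list that defined the set. They could not be checked against a gene table.

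The fetuses were female and were collected on day 83 of gestation from Angus-cross heifers inseminated with sexed semen of a single sire. Of 35 heifers assigned by body weight, 31 fetuses passed quality control. All dams ate a mixed ration of triticale hay, corn silage, distillers grains and ground corn. NoVTM dams received no vitamin and mineral premix, and VTM dams received 0.45 kg per day of ground corn with the premix (from the Wind & Rain Storm range of Purina, its All-Season 7.5 Complete product), begun 71 to 148 days before insemination. From breeding, LG dams stayed on the ration and gained little, 0.28 kg per day, while MG dams also received a starch-based protein and energy supplement (ground corn, dried distillers grains, wheat midds, fish oil, urea and ethoxyquin) and gained moderately, 0.79 kg per day. The groups held 8 fetuses (NoVTM_LG), 8 (VTM_LG), 8 (NoVTM_MG) and 7 (VTM_MG). Below, supplementation means VTM against NoVTM, and gain means MG against LG.

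A reference gene is used to correct for the amount of RNA that went into an assay, on the assumption that its own level does not move with the treatment. ACTB encodes cytoplasmic beta-actin, a building block of the cytoskeleton. GAPDH is an enzyme of glycolysis, YWHAZ is the zeta form of the 14-3-3 adaptor proteins that bind phosphorylated partners, PPIA (cyclophilin A) is a prolyl isomerase that assists protein folding, and B2M is the light chain of MHC class I molecules. The fetal liver is also a blood-forming organ, so its RNA comes from hepatocytes, blood precursors, macrophages and stroma in proportions that can vary. In whole tissue, fewer cells of a type and less RNA per cell cannot be told apart. No markers of these cell types could be matched to identifiers, so the share of each type in a library was not measured here.

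Total counts per library ranged from 13062894 to 18458776. Levels are given as CPM, counts set relative to library size, after scaling by TMM, a method that sets libraries on a common scale from the bulk of their genes. CPM is not corrected for transcript length, so levels are compared between fetuses and not between genes. The labels name no batch and no breeding group per sample. On the first principal component of log2 CPM over the 14228 genes tested, 2 libraries of VTM_LG were separate from the others, replicate 4 at 63.0 and replicate 7 at 37.9, where the other 29 ran from -20.2 to 6.69. The main comparisons of the 5 genes are given with and without them.

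ACTB averaged 853 ± 33.0 CPM (SD, n = 8) in the NoVTM_LG livers and 1007 ± 192 CPM (SD, n = 8) in those of VTM_LG. With moderate gain it averaged 880 ± 44.2 CPM (SD, n = 8) for NoVTM_MG and 859 ± 66.2 CPM (SD, n = 7) for VTM_MG. The lowest, median and highest fetus stood at 803, 851 and 914 CPM in NoVTM_LG, and at 773, 946 and 1393 CPM in VTM_LG. In NoVTM_MG they stood at 819, 863 and 940 CPM, and in VTM_MG at 769, 854 and 979 CPM. Of the 8 VTM_LG fetuses, 6 were above the highest NoVTM_LG fetus, 1 lay within the NoVTM_LG range and 1 was below its lowest fetus. NoVTM_LG was the group with the narrowest range of ACTB, and 4 of 8 VTM_LG fetuses were above the highest of NoVTM_MG and 3 of 8 above the highest of VTM_MG. The highest value, 1393 CPM, belonged to VTM_LG replicate 4 and the next, 1180.5 CPM, to VTM_LG replicate 7. These were 1.61 and 1.36 times the median of all 31 libraries. Without them the VTM_LG mean was 914 ± 74.6 CPM (SD, n = 6).

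YWHAZ lay on the other side of its median in the same livers. VTM_LG replicate 4 had 33.3 CPM, the lowest of all 31 and 0.658 times their median, and VTM_LG replicate 7 had 40.7 CPM, the second lowest. The other 29 libraries lay between 43.3 and 56.0 CPM. The VTM_LG mean was 46.1 ± 6.11 CPM (SD, n = 8), against 51.8 ± 3.03 CPM (SD, n = 8) for NoVTM_LG. NoVTM_MG averaged 50.7 ± 4.52 CPM (SD, n = 8) and VTM_MG 50.3 ± 3.78 CPM (SD, n = 7). The lowest, median and highest fetus of VTM_LG stood at 33.3, 47.9 and 51.0 CPM, and those of NoVTM_LG at 46.7, 51.8 and 56.0 CPM. Thus 8 of 8 VTM_LG fetuses were below the NoVTM_LG median, while only 2 were below its lowest fetus. Without both libraries the VTM_LG mean was 49.1 ± 1.62 CPM (SD, n = 6).

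PPIA was also highest in VTM_LG replicate 4, at 878 CPM, where the other VTM_LG fetuses lay between 512 and 672 CPM. VTM_LG replicate 7, at 657 CPM, was within the range of the other 29 libraries, 502 to 693 CPM. The VTM_LG mean was 662 ± 102 CPM (SD, n = 8) and that of VTM_MG 592 ± 58.2 CPM (SD, n = 7). Without the premix, LG livers averaged 618 ± 40.4 CPM and MG livers 636 ± 47.8 CPM (SD, n = 8 each). The groups overlapped widely, since NoVTM_LG ran from 552 to 679 CPM, NoVTM_MG from 559 to 693 CPM and VTM_MG from 502 to 667 CPM. The medians were 615, 662, 647 and 606 CPM in NoVTM_LG, VTM_LG, NoVTM_MG and VTM_MG.

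GAPDH did not single out these livers. VTM_LG replicate 4 had 493 CPM and replicate 7 had 482 CPM, inside the 372 to 523 CPM of the other 29. The lowest VTM_LG value belonged to VTM_LG replicate 8, which was also lowest of its group for ACTB and PPIA. The lowest, median and highest fetus were 394, 426 and 496 CPM in NoVTM_LG, and 372, 471 and 514 CPM in VTM_LG. In NoVTM_MG they were 398, 425 and 523 CPM, and in VTM_MG 372, 403 and 494 CPM. The means were 436 ± 37.7 (SD, n = 8), 460 ± 43.7 (n = 8), 446 ± 47.6 (n = 8) and 412 ± 41.4 CPM (n = 7) in the same order, and the groups overlapped throughout.

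B2M varied most of the 5 genes, and it did so in every group. The lowest, median and highest fetus were 56.6, 76.8 and 94.2 CPM in NoVTM_LG, 56.6, 82.8 and 113 CPM in VTM_LG, 56.0, 78.7 and 95.2 CPM in NoVTM_MG, and 49.0, 69.9 and 103 CPM in VTM_MG. The means, 74.2 ± 14.2 (SD, n = 8), 82.3 ± 19.7 (n = 8), 79.9 ± 12.6 (n = 8) and 74.2 ± 18.7 CPM (n = 7), differed by less than 1 SD of any group. VTM_LG replicate 7 held the highest value, 113 CPM, and VTM_LG replicate 4, at 84.9 CPM, lay inside the range of the others.

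**Figure D1:**
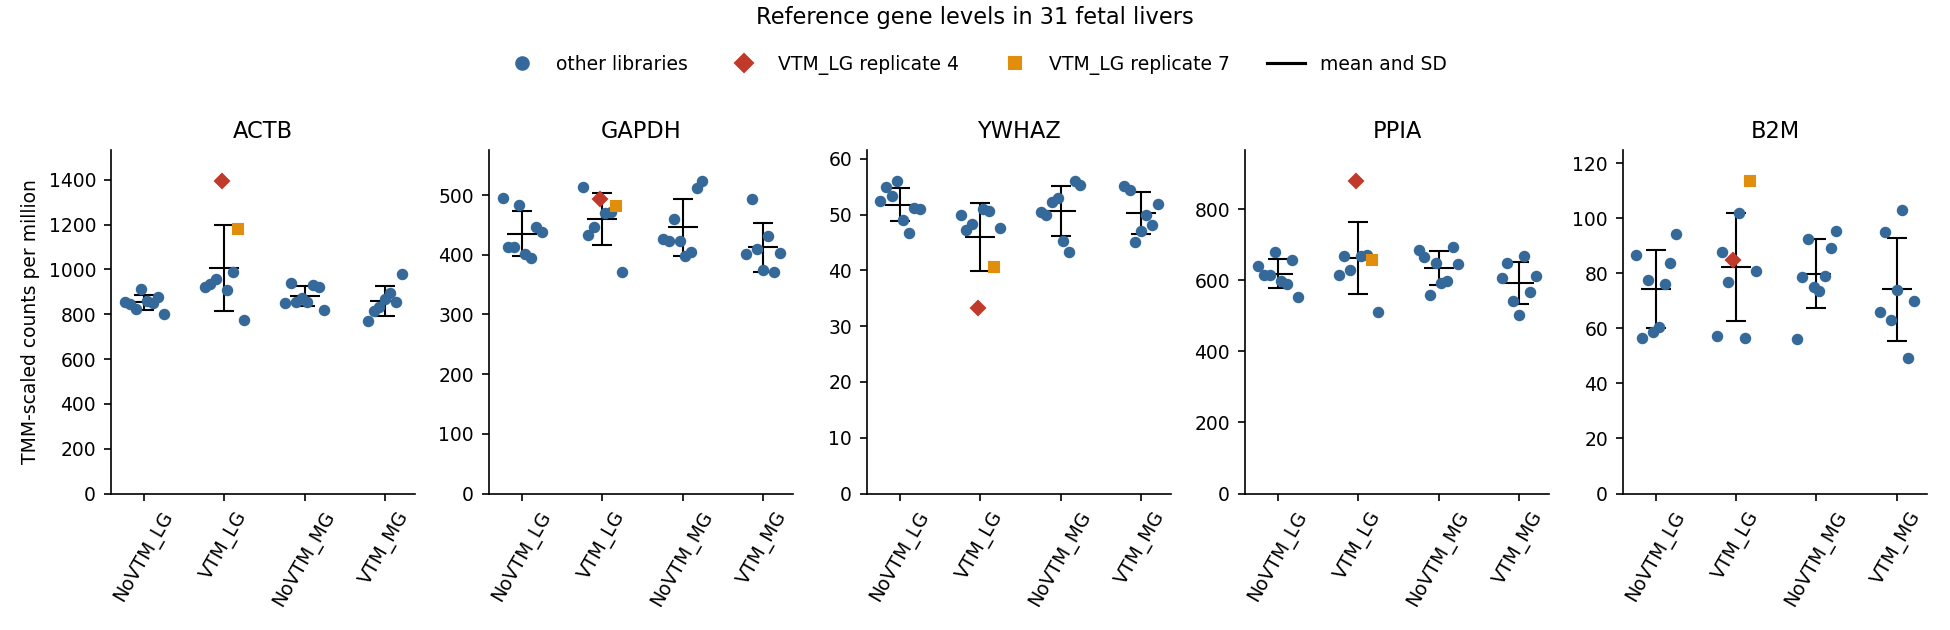
Level of each reference gene in every fetal liver (y axis, TMM-scaled CPM, starting at 0) by group (x axis), with the group mean and SD as bars. VTM_LG replicate 4 (diamond) is highest for ACTB (1393 CPM) and PPIA (878 CPM) and lowest for YWHAZ (33.3 CPM), while B2M is spread widely in all 4 groups.

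The question put to each gene was whether its level differed with the diet of the dam. All genes with enough counts were fitted together with edgeR's quasi-likelihood F test. The p-values were adjusted by the Benjamini-Hochberg method over the 14228 genes tested, with a threshold of 0.05. For the test of any difference among the 4 groups, 0 of 5 genes passed, where 0% of all genes did. At an unadjusted p under 0.05 the count was 1 of 5, ACTB, against 7.99% of all genes in edgeR. DESeq2 and limma voom likewise gave 0 adjusted and 1 unadjusted. Here and below, shares of all genes are those of edgeR. None is given for the other tools, so their unadjusted counts have no background share. ACTB had the widest gap between fitted group means, 0.24 on the log2 scale or 1.18-fold (edgeR unadjusted p = 0.0118, adjusted p = 0.612). The gap was 0.17 for YWHAZ, 0.16 for PPIA, 0.16 for GAPDH and 0.15 for B2M, with adjusted p-values of 0.658 to 0.896 in edgeR. Over all genes tested the median gap was 0.18, and over the 5 genes it was 0.16. The place of ACTB changed with 2 libraries. Without VTM_LG replicate 4 its gap was 0.15 (edgeR unadjusted p = 0.0733), still the widest of the 5. Without replicates 4 and 7, which left 6 VTM_LG fetuses, it was 0.10 (unadjusted p = 0.303). The gap of GAPDH was then the widest, at 0.13, beside 0.11 for B2M, 0.10 for PPIA and 0.08 for YWHAZ, with unadjusted p-values of 0.303 to 0.853 over the 5 genes. Without VTM_LG replicate 8 the ACTB gap was 0.28 (edgeR unadjusted p = 0.00138, adjusted p = 0.219).

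For gain averaged over supplementation, 0 of 5 passed against 0.0211% of all genes, and 0 had an unadjusted p under 0.05 against 7.82%. The log2 fold changes (MG against LG) ran from -0.09 for ACTB to 0.05 for YWHAZ, with a median size of 0.06 against 0.07 for all genes. With VTM_LG replicates 4 and 7 left out ACTB (-0.02, SE 0.0384), YWHAZ (0.00024, SE 0.0405), PPIA (-0.02, SE 0.0472) and GAPDH (-0.05, SE 0.0526) were nearer 0. B2M changed sign, from -0.02 to 0.03 (SE 0.103). With all libraries the 95% intervals of the fold were 0.867 to 1.01 for ACTB, 0.891 to 1.03 for GAPDH, 0.961 to 1.11 for YWHAZ, 0.888 to 1.03 for PPIA and 0.852 to 1.14 for B2M. The widest of these, that of B2M, left out a fold below 0.852 or above 1.14. Without VTM_LG replicate 8 the ACTB value was -0.11 (edgeR unadjusted p = 0.0348, adjusted p = 0.441). DESeq2 and limma voom also gave 0 adjusted and 0 unadjusted calls.

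For supplementation averaged over gain, 0 of 5 passed against 0% of all genes, and 0 had an unadjusted p under 0.05 against 2.9%. ACTB (0.10, SE 0.0556, edgeR unadjusted p = 0.0764) and YWHAZ (-0.09, SE 0.0509, edgeR unadjusted p = 0.0835) had the largest log2 fold changes, in opposite directions, each with an adjusted p of 0.9996. With VTM_LG replicates 4 and 7 left out these were 0.03 (SE 0.0384) and -0.05 (SE 0.0405), and with VTM_LG replicate 8 left out ACTB was 0.12 (edgeR unadjusted p = 0.0227). GAPDH, PPIA and B2M lay between -0.02 and 0.02, with 95% intervals of the fold of 0.919 to 1.06, 0.925 to 1.08 and 0.879 to 1.17. In the absence of replicates 4 and 7 they were -0.03, -0.04 and -0.03.

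The interaction is the supplementation difference in MG minus that in LG. None passed (0 of 5, against 0% of all genes), and 1 of 5, ACTB, had an unadjusted p under 0.05, against 10.7% in edgeR. The unadjusted count was 1 in DESeq2 and 2 in limma voom, with 0 adjusted in both. These counts have no share of all genes beside them. ACTB had an interaction of -0.28 on the log2 scale (SE 0.111, edgeR unadjusted p = 0.0186, adjusted p = 0.437). It was -0.19 (SE 0.0868, edgeR unadjusted p = 0.0366) without VTM_LG replicate 4, and -0.14 (SE 0.0769, unadjusted p = 0.0885) without replicates 4 and 7. With VTM_LG replicate 8 left out, the library lowest on the first component, it was -0.31 (adjusted p = 0.192). GAPDH, PPIA and B2M had negative interactions of -0.19, -0.20 and -0.26 and YWHAZ a positive one of 0.16, each with a 95% interval that included 0. These too were nearer 0 without VTM_LG replicates 4 and 7, at -0.16 for GAPDH, -0.12 for PPIA, -0.15 for B2M and 0.06 for YWHAZ, with unadjusted p-values of 0.128 to 0.460. Without VTM_LG replicate 8 they were -0.22 for GAPDH (edgeR unadjusted p = 0.0269) and -0.24 for PPIA (unadjusted p = 0.0223).

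Among the 6 pairwise comparisons, those with VTM_LG held all unadjusted p-values under 0.05 among the 5 genes. These comparisons share the VTM_LG libraries. Against NoVTM_LG, 0 of 5 passed (0% of all genes) and 2 of 5 had an unadjusted p under 0.05 (8.25% of all genes). They were ACTB, higher in VTM_LG by 0.24 on the log2 scale (SE 0.0773, edgeR unadjusted p = 0.00395, adjusted p = 0.600), and YWHAZ, lower by 0.17 (log2 fold change -0.17, SE 0.0708, edgeR unadjusted p = 0.0228, adjusted p = 0.600). Without VTM_LG replicate 4 the ACTB value was 0.15 (SE 0.0613, unadjusted p = 0.0171), and without replicates 4 and 7 it was 0.10 (SE 0.0554, unadjusted p = 0.0838). For YWHAZ it was -0.12 (SE 0.0600, unadjusted p = 0.0607) and -0.08 (SE 0.0585, unadjusted p = 0.195).

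In VTM_MG against VTM_LG, 0 of 5 passed (0%) and 3 of 5 had an unadjusted p under 0.05 (14.8% of all genes). These were ACTB (-0.23, unadjusted p = 0.00705), GAPDH (-0.16, unadjusted p = 0.0394) and PPIA (-0.16, unadjusted p = 0.0461), all with edgeR adjusted p-values of 0.252 to 0.331. With VTM_LG replicate 4 alone left out the values were -0.14, -0.14 and -0.09, with edgeR unadjusted p-values of 0.0320, 0.0710 and 0.197. With VTM_LG replicates 4 and 7 left out the values were -0.09, -0.13 and -0.08, with unadjusted p-values of 0.126, 0.107 and 0.241. In VTM_LG against NoVTM_MG, 0 of 5 passed (0%) and 1 of 5, ACTB (0.19, unadjusted p = 0.0170), had an unadjusted p under 0.05 (8.93% of all genes). Without VTM_LG replicates 4 and 7 it was 0.05 (unadjusted p = 0.340).

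In NoVTM_MG against NoVTM_LG, VTM_MG against NoVTM_MG and VTM_MG against NoVTM_LG, 0 of 5 passed (0% of all genes in each) and 0 had an unadjusted p under 0.05, against 4.58%, 4.57% and 2.85% of all genes. The log2 fold changes ran from -0.03 to 0.11, from -0.11 to -0.01 and from -0.08 to 0.01 in these comparisons. In DESeq2 and limma voom 0 of 5 passed in each of the 6 pairwise comparisons. Unadjusted, DESeq2 gave the same counts as edgeR in all 6, and limma voom gave 2 in VTM_MG against VTM_LG, 1 in VTM_LG against NoVTM_LG and 0 in the other 4. No share of all genes is given for these tools.

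**Figure D2:**
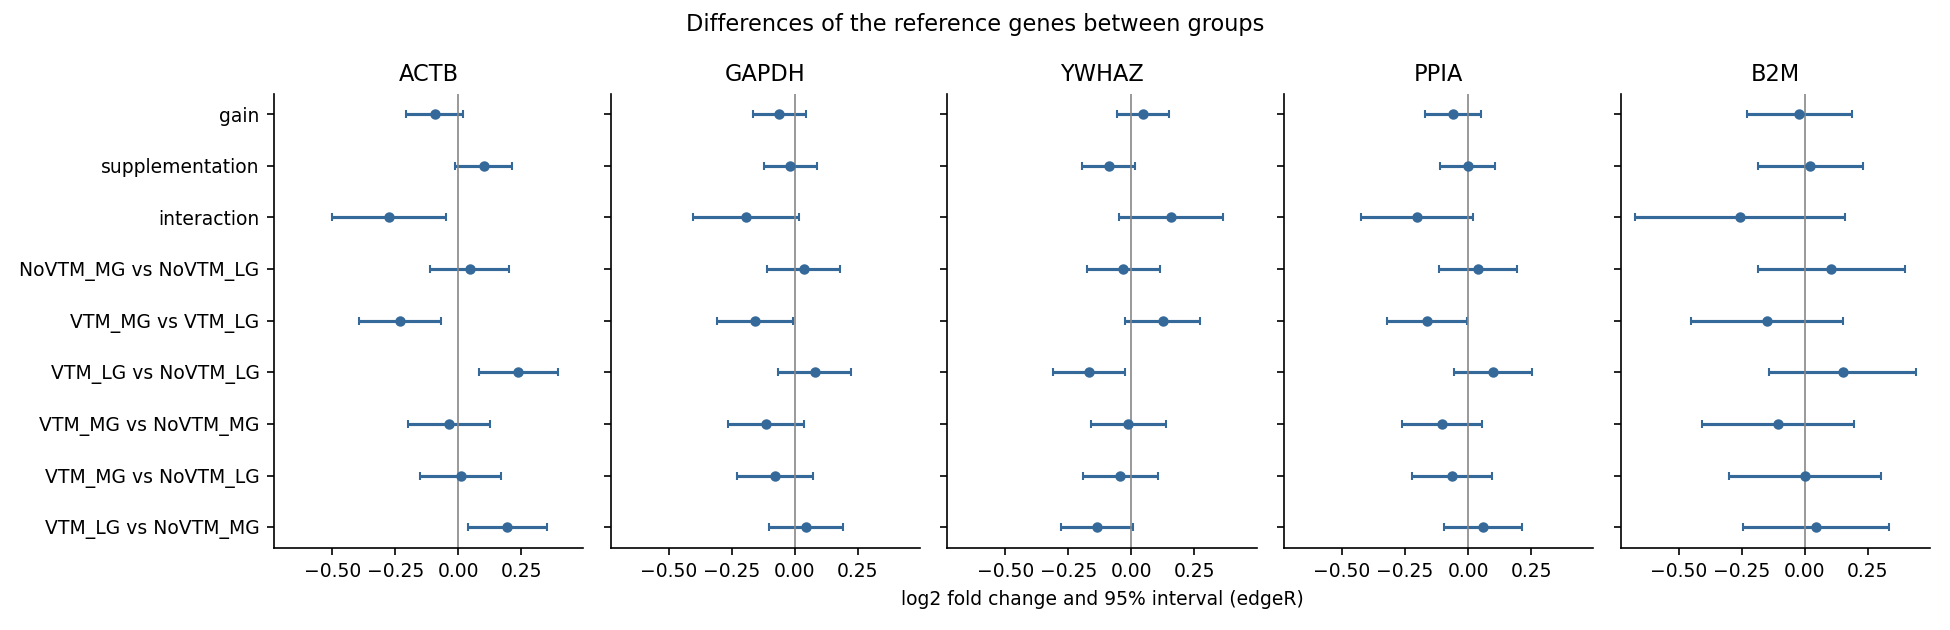
Log2 fold change of each reference gene (x axis, points) with its 95% interval (bars) from edgeR, for gain, supplementation, their interaction and the 6 pairwise comparisons (y axis). The intervals of ACTB that leave out 0 belong to the interaction and to comparisons with VTM_LG, and 0 of 5 genes passed after adjustment in any comparison.

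Spread between fetuses was then measured as the coefficient of variation (CV, the SD as a percentage of the mean) of CPM within groups, pooled over the 4 groups. It was 9.11% for YWHAZ (95% interval 7.21 to 12.4), 9.76% for GAPDH (7.71 to 13.3), 10.7% for PPIA (8.42 to 14.5), 11.8% for ACTB (9.36 to 16.1) and 21.2% for B2M (16.8 to 28.9). The intervals of the first 4 overlapped one another, so no order among them is drawn, and none of them reached the lower bound of B2M. Counting error alone would give a CV of 0.868% for ACTB, 1.24% for GAPDH, 1.04% for PPIA, 2.96% for B2M and 3.69% for YWHAZ, well under the measured values. From the lowest to the highest liver the level spanned 1.41-fold for GAPDH, 1.68-fold for YWHAZ, 1.75-fold for PPIA, 1.81-fold for ACTB and 2.31-fold for B2M.

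The median within-group CV was 15.4% over the 14228 genes tested and 11.0% over the 1206 genes with a mean of at least 100 CPM, where counting error is small. ACTB, GAPDH and PPIA belong to the abundant class, and 57.7%, 37.6% and 46.3% of its genes had a lower CV. Over all genes tested, many of them of low count, 12.8% had a lower CV than YWHAZ, 16.3% than GAPDH, 21.9% than PPIA, 30.1% than ACTB and 68.7% than B2M. As point values, 4 of the 5 lay below the median CV of all genes, and ACTB lay above that of abundant genes. The 95% interval of ACTB, 9.36 to 16.1, included both medians, so its side of each is not settled. Within single groups the CV of ACTB was 19.1% in VTM_LG and 3.87% to 7.71% in the others, a difference that the pooled interval does not take into account. Without VTM_LG replicates 4 and 7 the shares were 5.67% for YWHAZ, 24.8% for GAPDH, 13.8% for PPIA, 3.10% for ACTB and 70.2% for B2M. The 2 abundant genes of lowest CV, ENSBTAG00000030435 (360 CPM) and ENSBTAG00000016199 (114 CPM), had 4.21% and 4.22%. Both were picked as the lowest of the 1206 in these same libraries, so their values are a description. edgeR's estimate of the variation left after counting error was 19.8% for B2M against 12.4% for the trend of genes at its level. For the other 4 it was below that trend, with ACTB at 11.0% against 13.2% and YWHAZ at 9.67% against 12.7%.

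Among single libraries, leaving out VTM_LG replicate 4 lowered the within-group CV of ACTB most, and VTM_LG replicate 8 next, to 10.6%. Without VTM_LG replicates 4 and 7 together the within-group CV of ACTB was 6.27% (95% interval 4.92 to 8.65). These were the 2 highest libraries for ACTB, so a lower value without them largely follows from that. Of the 1203 abundant genes, 12.6% then had a lower CV. YWHAZ came to 6.93% and PPIA to 8.35%, while GAPDH (9.98%) and B2M (20.6%) hardly moved. The median of abundant genes was then 9.35%. The GAPDH value lay above it, with a 95% interval of 7.83 to 13.8 that included it. Of these genes, 56.4% had a lower CV than GAPDH and 37.6% a lower CV than PPIA. Without VTM_LG replicate 4 alone the CV was 8.05% for ACTB, 7.45% for YWHAZ and 8.18% for PPIA. The share of the total variance of ACTB that lay between groups was 28.8% with all libraries, against a median of 10.04% over all genes tested, and 16.5% without the 2 libraries.

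**Figure D3:**
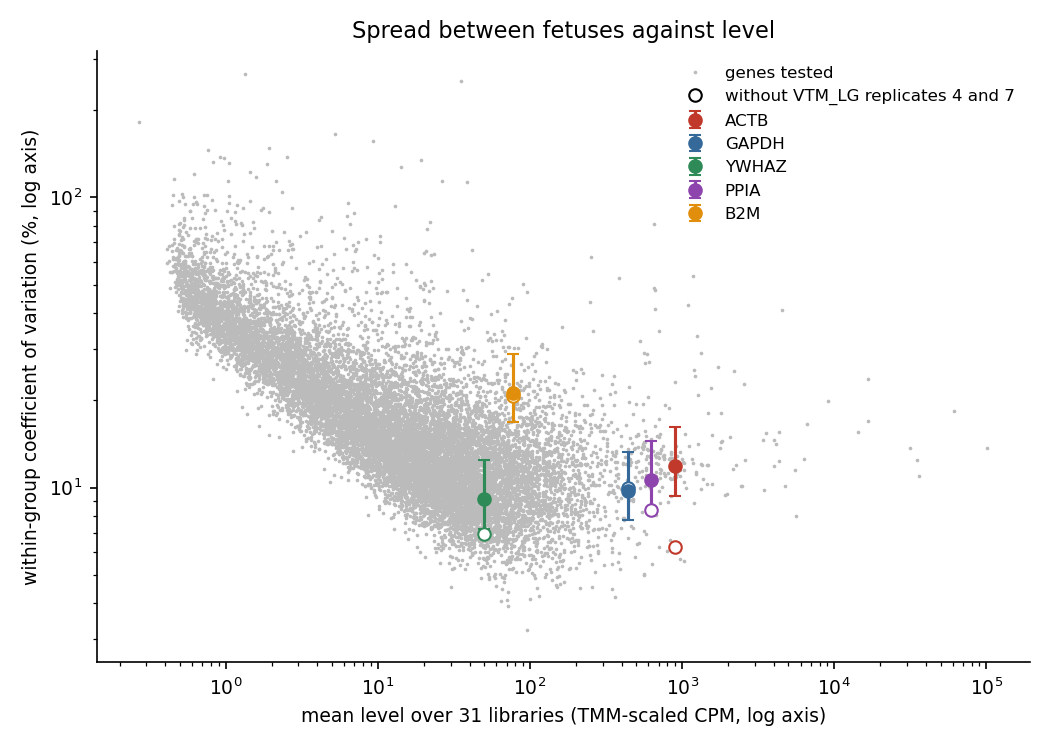
Within-group coefficient of variation (y axis, %, log axis) against mean level (x axis, TMM-scaled CPM, log axis) for all genes tested (grey) and for the 5 reference genes (filled, with 95% intervals). Open circles leave out VTM_LG replicates 4 and 7, which brings ACTB from 11.8% to 6.27% and leaves B2M near 21%.

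Ratios of 2 genes within a library need no library scaling, and they are what a reference gene is used for. For each of the 10 pairs the SD over the 31 livers of the log2 ratio of counts was computed, and its mean over the 4 pairs of a gene is known as the geNorm M value, lower for genes that move together. M was 0.197 for GAPDH, 0.203 for PPIA, 0.230 for ACTB, 0.273 for YWHAZ and 0.320 for B2M. The tightest pairs were GAPDH/PPIA (SD 0.129) and ACTB/PPIA (SD 0.129), and the widest was YWHAZ/B2M (SD 0.360). The 4 pairs with B2M had SDs of 0.285 to 0.360.

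The number of ACTB counts per YWHAZ count had a median of 17.7 and reached 41.8 in VTM_LG replicate 4 and 29.03 in the next highest library. Its SD, 0.297, was larger than the 0.227 that independent variation of both genes would give. The PPIA and GAPDH ratios to YWHAZ were extreme in the same liver. The GAPDH/YWHAZ ratio was 14.8 there, against 11.9 in the next highest library and a median of 8.72. YWHAZ/PPIA was 0.0379 there, against 0.0619 in the next lowest library and a median of 0.0816. VTM_LG replicate 4 held 433 YWHAZ counts, enough to keep counting error far below these gaps.

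Leaving out VTM_LG replicates 4 and 7, the SD of ACTB/YWHAZ was 0.145, that of YWHAZ/PPIA 0.116 in place of 0.238, and that of GAPDH/YWHAZ 0.120 in place of 0.198. M then was 0.164 for PPIA, 0.168 for GAPDH, 0.170 for YWHAZ, 0.181 for ACTB and 0.302 for B2M. YWHAZ, which had the highest M after B2M with all libraries, then lay between GAPDH and ACTB, and B2M had the highest M in both. The SDs of the pairs with B2M other than YWHAZ/B2M changed little, as in ACTB/B2M (0.320 and 0.317).

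**Figure D4:**
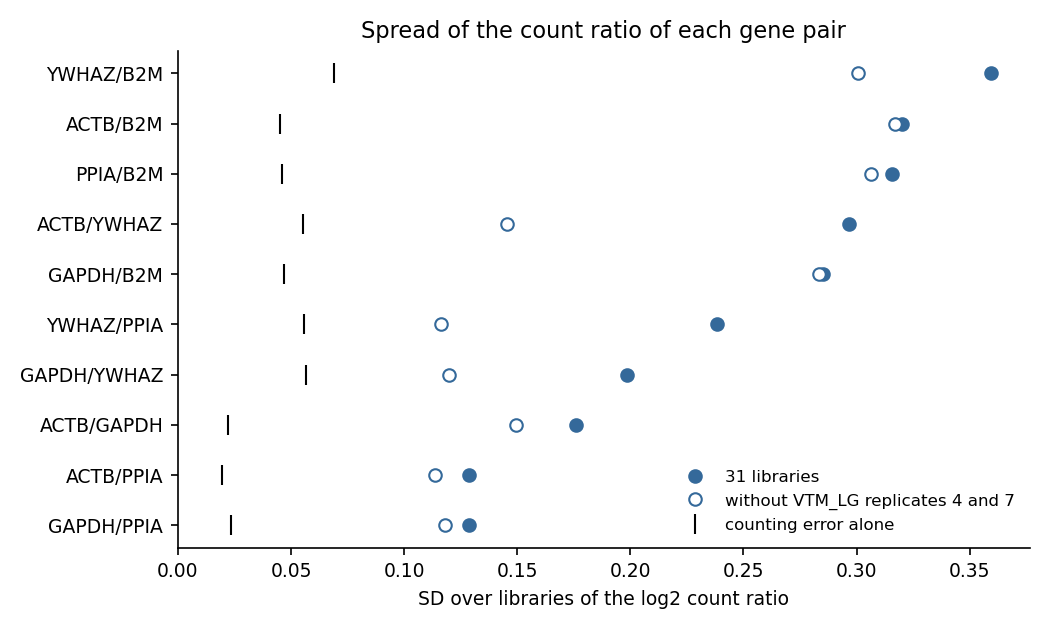
SD over libraries of the log2 count ratio (x axis) for each of the 10 gene pairs (y axis), with all 31 libraries (filled), without VTM_LG replicates 4 and 7 (open) and from counting error alone (ticks). Pairs with B2M stay near 0.3, while ACTB/YWHAZ drops from 0.297 to 0.145 without the 2 libraries.

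To see what these differences do to a measurement, all libraries were scaled by a reference gene in place of TMM and the whole table was fitted again, leaving the 5 genes out of the counts of calls. Against TMM, scaling by the geometric mean of all 5 changed single libraries by 0.857-fold to 1.13-fold. ACTB alone changed them by 0.860-fold to 1.56-fold, GAPDH by 0.850-fold to 1.20-fold, YWHAZ by 0.673-fold to 1.13-fold, PPIA by 0.804-fold to 1.41-fold and B2M by 0.644-fold to 1.49-fold. The upper extreme for ACTB and PPIA and the lower extreme for YWHAZ were all VTM_LG replicate 4.

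The direction of the whole table turned with the gene chosen. In VTM_LG against NoVTM_LG, the median log2 fold change of the 14223 other genes was 0.01 with TMM, -0.20 with ACTB and 0.19 with YWHAZ. With GAPDH it was -0.07, with PPIA -0.07 and with B2M -0.12, so of the 5 genes only YWHAZ gave a positive median. By construction this shift is opposite in sign to the reference gene's own difference. With ACTB, 4187 genes (29.4%) had an unadjusted p under 0.05, 15 higher and 4172 lower in VTM_LG. With YWHAZ there were 4515 (31.7%), 4463 higher and 52 lower, and with TMM 1172 (8.24%), 616 higher and 556 lower. None of these passed after adjustment in edgeR. When VTM_LG replicates 4 and 7 were left out the medians were -0.09 with ACTB and 0.08 with YWHAZ, and the counts 1043 (52 higher, 991 lower) and 808 (736 higher, 72 lower), against 533 with TMM. The geometric mean of all 5 gave a median of -0.06 with 974 genes, 98 higher and 876 lower, and -0.02 with 430 genes without the 2 libraries.

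For gain averaged over supplementation, 3 genes passed with TMM, all lower in MG. With the geometric mean of the 5, with ACTB, GAPDH, PPIA or B2M, 0 passed in edgeR, and with YWHAZ 5 passed, of which 2 were among those 3. The fold changes themselves moved less than the calls. For ENSBTAG00000012855 the log2 value was -0.60 with TMM (SE 0.102, edgeR adjusted p = 0.0205) and -0.65 with YWHAZ (SE 0.0987, adjusted p = 0.00178). With ACTB it was -0.53 (SE 0.130, edgeR adjusted p = 0.572). ENSBTAG00000055207 had -0.38 with TMM and between -0.42 and -0.30 with the single reference genes. Both had been chosen by this contrast, so their values are a description. The median SE over all genes was 0.0788 with TMM, 0.0882 with the 5 together, 0.0943 to 0.0973 with GAPDH, YWHAZ, ACTB or PPIA, and 0.140 with B2M. In the 29 libraries that remain without VTM_LG replicates 4 and 7, 3 genes passed for gain with TMM, 2 with the 5 together, 2 with YWHAZ, 6 with B2M and 0 with ACTB, GAPDH or PPIA.

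**Figure D5:**
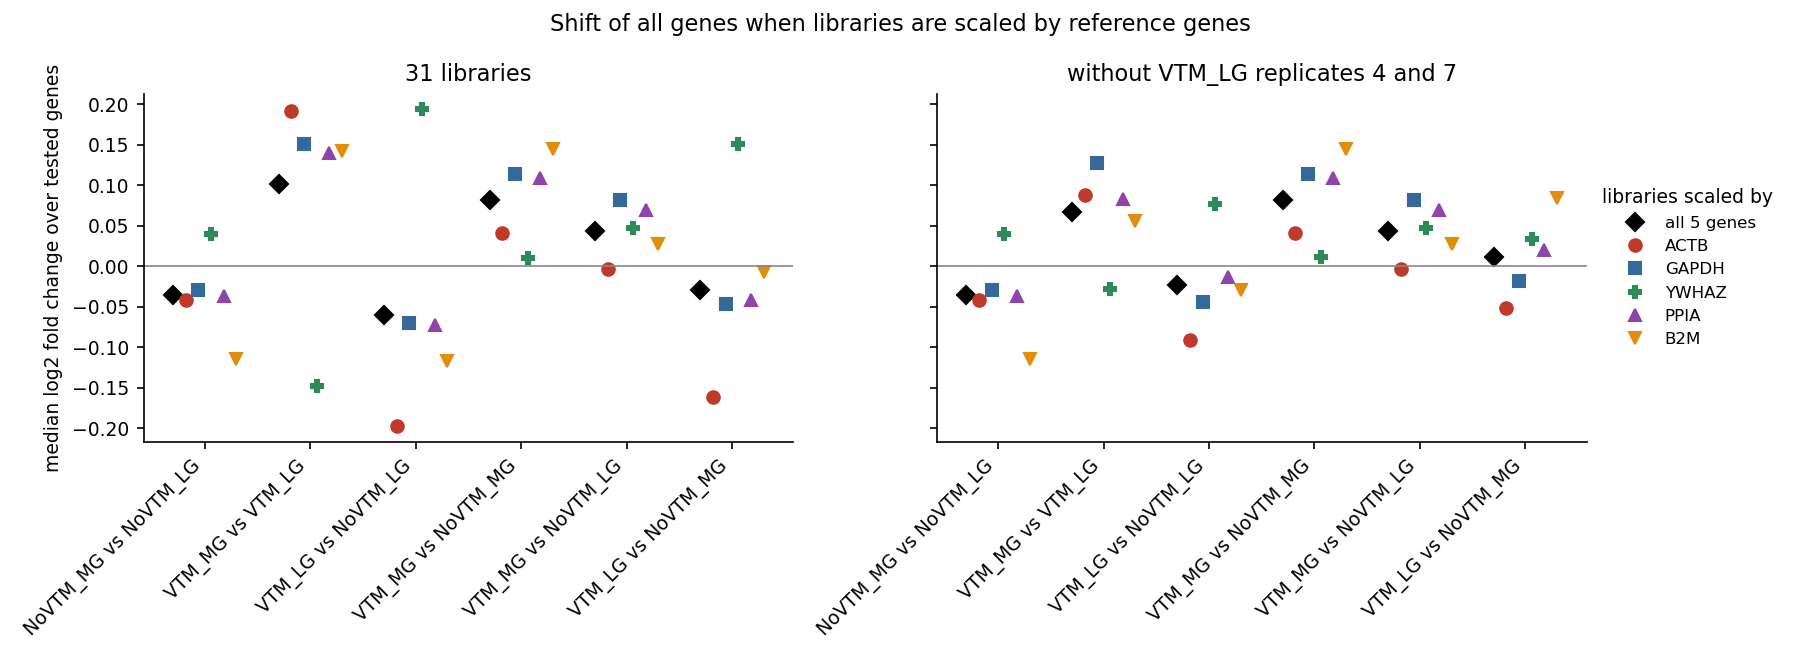
Median log2 fold change over all other tested genes (y axis) in the 6 pairwise comparisons (x axis) when libraries are scaled by each reference gene or by all 5, with 31 libraries (left) and without VTM_LG replicates 4 and 7 (right). In VTM_LG against NoVTM_LG, ACTB gives -0.20 and YWHAZ 0.19 on the left, and -0.09 and 0.08 on the right.

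Other genes with a like pattern across the 31 livers were sought by the Pearson correlation of log2 CPM, over 8441 genes with a mean of at least 10 CPM. These are the highest of many values and are given as a description. For PPIA the highest was ENSBTAG00000023462 (r = 0.934, and 0.913 without VTM_LG replicates 4 and 7). For GAPDH it was ENSBTAG00000016079 (0.850 and 0.899), and for B2M ENSBTAG00000048782 (0.885 and 0.897). B2M stood out in that its next highest gene reached only 0.601, whereas the next for PPIA reached 0.934 and for GAPDH 0.826. For ACTB the highest was ENSBTAG00000004915 (0.908, and 0.742 without the 2 libraries). For YWHAZ it was ENSBTAG00000051726, whose correlation of 0.851 came to 0.579 without them and then ranked 131.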

How the data were processed

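RNA of 31 fetal livers was sequenced. Per the labels' protocols, libraries were strand-specific, and reads were paired and 150 bp long. Among the tools in the submitters' processing notes are STAR 2.7.3a, FastQC 0.11.8, MultiQC 1.9, CASAVA and edgeR, whose roles are not stated. Genome build, annotation and counter: not given in the sources used here, so read sharing with processed copies or close paralogs could not be checked. Values in the deposited file are whole-number counts for each gene, which the authors had not normalized. Groups came from the treatment label. Replicate numbers follow sample order and are names only. Fetuses came from separate heifers that shared a sire.

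From these counts, edgeR 4.0.16 (R 4.3.3) fitted all 31 libraries with 1 mean per group, after filterByExpr on the 4 groups (minimum count 10, minimum total 15) and TMM scaling. Standard errors were derived from the fold change and its F statistic. Log2 CPM used a prior count of 2. CV intervals are chi-square intervals at 95%. limma 3.58.1 (voom with quality weights) and DESeq2 1.42.0 served as alternatives, with other scalings, filters and libraries left out. The edgeR fit with TMM scaling was tried on simulated counts for the gain comparison only. The CVs, ratios, correlations and scaling by reference genes were not tried in this way. The reference gene table supplied held 0 Ensembl identifiers, so gene lists planned by symbol were not used here. The rule for named genes took the 5 genes, the 2 most alike each by correlation (the first is named, the second given by value), the 2 abundant genes of lowest CV and up to 2 genes per direction that passed. The 5 genes, the lists and the alternatives were chosen with earlier results of these data known.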

Additional observations from a re-analysis of the deposited data

Results flagged for a closer look

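PPIA stood at 878 CPM in VTM_LG replicate 4, while the other 7 VTM_LG fetuses lay between 512 and 672 CPM. The gap to the next fetus was 0.562 of the whole range of the group, above the Dixon critical value of 0.526 for 8 samples. This was 1 of the 20 sets of values examined (5 genes in 4 groups), and chance alone marks about 1 in 20. In the same liver ACTB was 1393 CPM and YWHAZ 33.3 CPM. Of the 14228 genes tested, 1008 were at least 2-fold below and 200 at least 2-fold above their median over all libraries. The part of this library's composition in the PPIA value was not tested.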

How the results depend on the processing

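In each of the 10 comparisons, 0 of 5 genes passed under each of 40 alternatives. The differences for gain, supplementation and interaction kept their direction except for 2 genes with values near 0. PPIA for supplementation (main value -0.0016) was 0.014 with total counts and ranged from -0.038 to 0.018 leaving out 1 library at a time. B2M for gain (-0.022) was 0.0077 with scaling by the 5 genes and 0.029 without VTM_LG replicates 4 and 7, and ranged from -0.070 to 0.020 leaving out 1 library. B2M for supplementation (0.022) was -0.013 in limma voom and -0.029 without those 2 libraries, with a range of -0.026 to 0.060. With total counts the within-group CV was 7.07% for GAPDH and 8.37% for PPIA. Without VTM_LG replicates 4 and 7 it was 6.27% for ACTB, 6.93% for YWHAZ and 8.35% for PPIA, and M was 0.181 for ACTB and 0.170 for YWHAZ. Leaving out 1 library gave a CV of 8.05% to 12.1% for ACTB and 8.18% to 10.9% for PPIA, and an M of 0.204 to 0.278 for YWHAZ, each lowest without VTM_LG replicate 4.

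Summed over the 10 comparisons, scaling by the 5 genes, ACTB, GAPDH, YWHAZ, PPIA and B2M gave 0, 4, 0, 6, 0 and 7 calls in edgeR. With no filter on low counts these were 10, 11, 9, 19, 8 and 145, and without VTM_LG replicates 4 and 7 they were 4, 2, 2, 3, 0 and 28. The cause of these changes was not tested. The comparisons share libraries, so a gene can be counted more than once in a sum. With TMM and all libraries, 3 genes passed for gain and 0 in each other comparison. Without VTM_LG replicates 4 and 7, TMM gave 3 for gain and 2 over the 4 groups. It then gave 1 each for supplementation, VTM_LG against NoVTM_MG and NoVTM_MG against NoVTM_LG. Over the whole table the edgeR count for gain, 3, ranged from 0 to 9 over the alternatives, and the counts of 0 reached at most 23 (VTM_MG against VTM_LG, without VTM_LG replicate 8), 13 (4 groups, DESeq2), 9 (NoVTM_MG against NoVTM_LG, DESeq2), 6, 3 and 1 in other comparisons. No paired analysis was possible because the labels give no replicate numbers that link fetuses across groups.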
